A study of Mus musculus with 6 samples.

Results

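The interferon-inducible GTPases described here are 10 genes of the guanylate-binding protein (GBP) and immunity-related GTPase (IRG) families. They are Gbp2, Gbp3, Gbp4, Gbp7, Gbp9, Irgm1, Irgm2, Igtp, Iigp1 and Tgtp1. They were taken by gene symbol from the 37991 entries of each count table. All 10 were found, and all 10 passed the filter on low counts that left 16231 genes to test.

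The RNA came from group 2 innate lymphoid cells (ILC2), lymphocytes without antigen receptors that make type 2 cytokines such as IL-5 and IL-13. There were 3 groups of 2 libraries: ILC2 sorted from mesenteric lymph nodes (MLN) and then grown for 1 week in a mixture of 10 ng/ml IL-7, 10 ng/ml IL-25 and 10 ng/ml IL-33 (cultured MLN), ILC2 of the thymus, and ILC2 of MLN without culture (fresh MLN). The sort took lineage-negative cells carrying Thy1 and ST2, and about 300000 cells went into a sample. Every group, fresh MLN included, came from homozygous Id1 transgenic mice (Id1tg/tg). The transgene places Id1, whose product holds E proteins off the DNA, under the proximal lck promoter, and was made in FVB/N mice and crossed onto C57BL/J. Per the labels, T cell development is blocked in these animals and ILC2 accumulate throughout the body. No non-transgenic group is among these 6 libraries, and the sources used here do not give the ages of the mice.

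Library totals lay between 35280692 and 40578264 counts, and values below are CPM, counts brought to a common sequencing depth through library totals scaled with TMM factors. Id1 was at 1.48 and 1.19 CPM in cultured MLN, 422 and 426 CPM in thymus, and 434 and 469 CPM in fresh MLN. The ILC2 regulator Gata3 and the ST2 gene Il1rl1 were at 599 to 2342 CPM over the 6 libraries. Thy1 was at 107 and 120 CPM in cultured MLN, 726 and 736 CPM in thymus, and 371 and 299.7 CPM in fresh MLN. Of 14 ILC2 and sort markers, all were measured in each group, and 9 were higher and 5 lower in cultured MLN than in fresh MLN, while 3 were higher and 7 lower in thymus than in fresh MLN. Whether both libraries of a group came from separate animals or cultures is not stated in the labels. The p-values below rest on the spread between libraries of the same group, estimated over all groups together and moderated by that of other genes. This spread may therefore be technical.

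GBP and IRG proteins are GTPases of cell-autonomous immunity: cells make them after interferon reaches its receptor and the JAK kinases activate STAT factors. They gather on the membranes around intracellular parasites and bacteria and help to break those membranes open. In mice the IRG proteins fall into effectors, which load onto the vacuole and have a lysine in the first nucleotide-binding motif (GKS), and regulators, which sit on the cell's own membranes, keep the effectors inactive there and have a methionine in that place (GMS). Most of what is known of these proteins comes from macrophages and fibroblasts.

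Promoters of interferon-induced genes commonly hold the interferon-stimulated response element (ISRE), bound by IRF factors, and the gamma-activated site (GAS), bound by STAT factors. Windows of 300 bases, from 250 bases before the annotated start, were read from RefSeq (GRCm38.p6) for 7 of the 10 members. Gbp4, Gbp9 and Iigp1 are named only. The windows were searched on both strands for an ISRE core (GAAA, any 2 bases, GAAA) and a GAS core, TTCNNNGAA; the 2 motifs may overlap. An ISRE core was found in 7 of 7 members, against 3.99% of the 27025 genes with a window. A GAS core was found in 4 of 7 members, against 9.55% of all genes, and both motifs stood in 1 window of those 4, against 0.540% of all genes. Among the 9 other GBP and IRG genes whose window was read, 6 held an ISRE core and 4 a GAS core. A match describes letters only and is not evidence of a bound site. The stretches of 60 bases around the ISRE cores are shown because they differ in the layout of the motifs, with ISRE and GAS cores in capitals and each sequence on the strand of its gene. Tgtp2, the closest copy of Tgtp1, is added for comparison. The positions are chr3:142620579-142620638 for Gbp2, chr3:142559977-142560036 for Gbp3 and chr3:142530258-142530317 for Gbp7, all on the plus strand. Those of the IRG genes are chr11:48871413-48871472 for Irgm1, minus strand, chr11:58214888-58214947 for Irgm2 and chr11:58199497-58199556 for Igtp, both plus strand, and chr11:48992289-48992348 for Tgtp1 and chr11:49064248-49064307 for Tgtp2, both minus strand.
Gbp2: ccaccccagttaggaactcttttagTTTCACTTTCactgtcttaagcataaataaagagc
Gbp3: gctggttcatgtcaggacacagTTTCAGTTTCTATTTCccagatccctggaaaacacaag
Gbp7: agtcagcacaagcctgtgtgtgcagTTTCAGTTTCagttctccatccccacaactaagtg
Irgm1: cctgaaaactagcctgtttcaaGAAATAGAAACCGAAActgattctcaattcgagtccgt
Irgm2: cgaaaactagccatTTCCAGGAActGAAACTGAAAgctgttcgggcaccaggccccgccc
Igtp: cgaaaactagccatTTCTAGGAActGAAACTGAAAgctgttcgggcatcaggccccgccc
Tgtp1: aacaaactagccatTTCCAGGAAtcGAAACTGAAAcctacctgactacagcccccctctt
Tgtp2: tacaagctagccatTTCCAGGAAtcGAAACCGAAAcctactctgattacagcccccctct

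The 3 GBP genes carried their ISRE core on the strand opposite to the gene, where it reads TTTC, any 2 bases, TTTC, and the 4 IRG members carried it on the strand of the gene. In Irgm2, Igtp and Tgtp1 a GAS core preceded the ISRE core with 2 bases between them, and the same layout was found in Tgtp2. The bases before and within the cores were also largely alike in these genes. They are therefore not independent cases when set against the shares over all genes. Gbp3 and Irgm1 each held 2 overlapping ISRE cores and no GAS core, and a second annotated start of Gbp3 had neither motif in its window. The GAS cores of Gbp7 lay farther from the start, outside the stretch shown, with first bases at -106 and -87 against -53 for its ISRE core (the start base counted as 0).

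**Figure D1:**
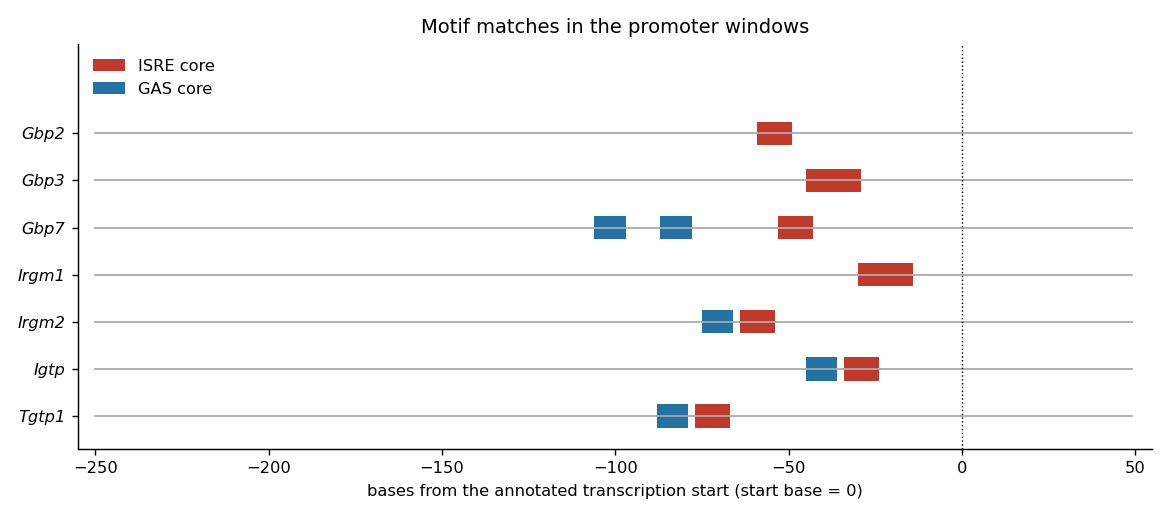
Positions of ISRE cores (red) and GAS cores (blue) in the promoter windows of the 7 members whose RefSeq window was read, by distance in bases from the annotated transcription start (start base = 0, dotted line; grey lines are the windows). All first bases of the matches lie between -106 and -24, and the GAS and ISRE cores of Irgm2, Igtp and Tgtp1 stand side by side.

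Together the 10 genes were at 596 and 640 CPM in cultured MLN, 1099 and 1169 CPM in thymus, and 3661 and 3647 CPM in fresh MLN. The 3 groups did not overlap in this sum. Fresh MLN thus held the most of this RNA, and both libraries of that group lay close together. In bulk RNA, fewer cells that express a gene and less RNA per cell cannot be told apart. Relative to fresh MLN, the thymus reached between 7.66% and 43.0% of a member's CPM, with a median of 31.2%, and cultured MLN between 0.341% and 40.2%, with a median of 14.7%.

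Thymus ILC2 were compared with fresh MLN ILC2 to ask whether the tissue from which the cells were taken changes their transcripts. In thymus all 10 members were lower, with log2 fold changes between -3.71 and -1.22 and a median of -1.68 (edgeR quasi-likelihood test, adjusted p under 0.05). Over all genes tested, 22.0% were called lower and 25.3% higher in thymus, and the median was 0.00. All 10 members also passed a test against a 2-fold change (glmTreat in edgeR), which 2.47% of all genes passed in that direction. The 2 groups did not overlap in any member, and 35.6% of all genes were lower without overlap.

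Cultured MLN ILC2 were compared with fresh MLN ILC2 to ask what growth in the 3 cytokines did to sorted cells. In cultured MLN all 10 members were lower, with log2 fold changes between -8.18 and -1.32 and a median of -2.78. Over all genes, 38.1% were called lower and 39.4% higher, and the median was -0.01. All 10 passed the test against a 2-fold change, which 15.3% of all genes passed in that direction, and no member's groups overlapped, against 44.6% of genes lower without overlap. This comparison shares the fresh MLN libraries with that of thymus, so the 2 are not independent. Cultured and fresh cells also differed in Id1 RNA, by a log2 fold change of -8.41 for the gene that the transgene expresses, although both groups are labelled Id1tg/tg. The cytokines, the time outside the animal, the neighbouring cells and the level of Id1 cannot be told apart in this design.

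Cultured MLN was also set against thymus. There 8 members were lower in cultured MLN, 1 was higher and 1 was not called, against 37.8% lower and 34.8% higher over all genes. Gbp2, Gbp7, Gbp9, Iigp1 and Tgtp1 passed the test against a 2-fold change, which 12.5% of all genes passed as lower. The 8 lower members did not overlap between the groups, and 45.1% of all genes were lower without overlap. The members' log2 fold changes ran from -5.17 to 0.33 with a median of -1.09, against -0.06 over all genes. The direction was thus not shared by all members here, as it was in both comparisons with fresh MLN.

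**Figure D2:**
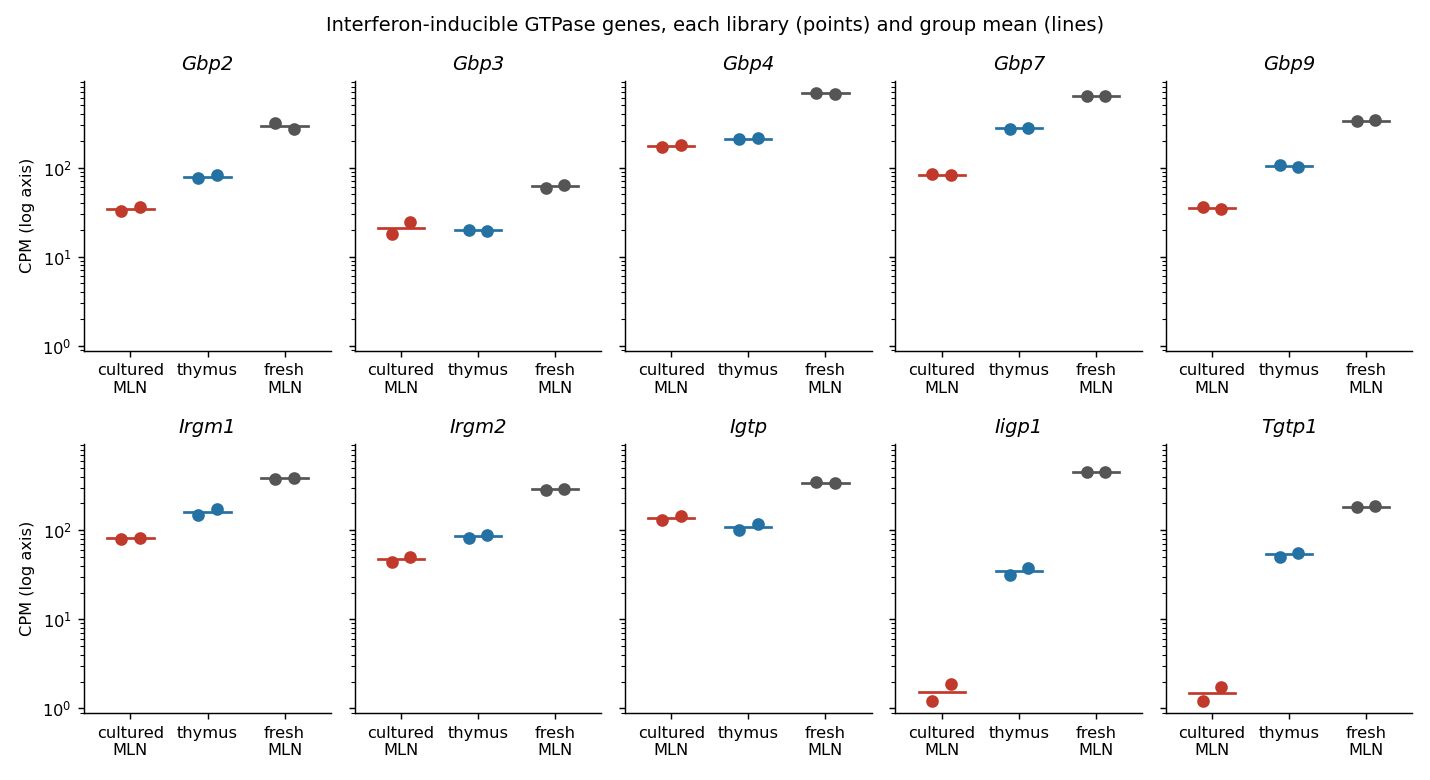
CPM of each member (log axis) in cultured MLN, thymus and fresh MLN; points are the 2 libraries of a group and lines the group means. Fresh MLN is highest for all 10 genes, while cultured MLN and thymus lie close for Gbp3, Gbp4 and Igtp and far apart for Iigp1 and Tgtp1, at 1.21 to 1.87 CPM in cultured MLN.

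The GBP members encode large GTPases that assemble into coats on pathogen membranes. Gbp2, one of the GBPs best known for loading onto parasite vacuoles in mouse cells, was at 32.4 and 36.0 CPM in cultured MLN, 75.8 and 81.6 CPM in thymus, and 314 and 272 CPM in fresh MLN. The groups did not overlap, and the difference between the 2 fresh MLN libraries was small beside that between groups. Its log2 fold change was -3.10 ± 0.09 in cultured MLN and -1.90 ± 0.08 in thymus, both against fresh MLN (± SE).

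Gbp7 was at 83.7 and 82.1 CPM in cultured MLN, 271 and 278 CPM in thymus, and 634 and 642 CPM in fresh MLN. Libraries of a group lay within a few percent of each other and the groups were far apart. Gbp7 had, with Irgm1, the smallest fall in thymus, -1.22 ± 0.06 against fresh MLN, but fell by 2.94 on the log2 scale in cultured MLN against fresh MLN. In GENCODE M21 (GRCm38) 11.3% of its exon bases overlap a gene model on the same strand, Gm43802. The reads were counted on mm9, so whether this overlap applies to the counts is not known.

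Gbp9 was at 35.9 and 34.1 CPM in cultured MLN, 108 and 102 CPM in thymus, and 333 and 339 CPM in fresh MLN, with no overlap. It had the largest fall of the 5 GBP members in culture, -3.26 ± 0.07 against fresh MLN, and -1.67 ± 0.07 in thymus against fresh MLN. Gbp4, which lies on chromosome 5 in the cluster that holds Gbp9, moved less. It was at 171 and 180 CPM in cultured MLN, 209 and 213 CPM in thymus, and 681 and 674 CPM in fresh MLN. The cultured and thymus libraries of Gbp4 were near each other without overlap, and its log2 fold change in cultured MLN against thymus was -0.27 ± 0.07 (edgeR, adjusted p = 0.00273). Gbp4 shared 7.53% and Gbp9 8.05% of their 50-base transcript stretches with other genes of the family. Reads from shared stretches may have been given to another copy or dropped. With Gbp4, Gbp8 and Gbp9 summed, the log2 fold change in cultured MLN against thymus was -0.65, between that of Gbp4 and the -1.59 of Gbp9.

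Gbp3 was at 17.9 and 24.5 CPM in cultured MLN, 19.8 and 19.6 CPM in thymus, and 58.8 and 63.9 CPM in fresh MLN. The cultured libraries lay on either side of the thymus libraries, and both groups lay below fresh MLN. In cultured MLN against thymus its log2 fold change was 0.11 ± 0.12 (edgeR, adjusted p = 0.444), so no difference was shown there; against fresh MLN it was -1.53 ± 0.12 in cultured MLN and -1.64 ± 0.12 in thymus. Without cultured MLN replicate 1 the value against thymus was 0.31 (adjusted p = 0.0199), and without cultured MLN replicate 2 it was -0.14 (adjusted p = 0.304).

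The regulatory IRG members are Irgm1, Irgm2 and Igtp, also known as Irgm3. Irgm1, which mouse macrophages need to control mycobacteria, was at 80.3 and 82.7 CPM in cultured MLN, 150 and 174 CPM in thymus, and 374 and 390 CPM in fresh MLN. Its groups did not overlap, and its log2 fold change against fresh MLN was -2.23 ± 0.08 in cultured MLN and -1.24 ± 0.08 in thymus. Irgm2 was at 44.0 and 50.5 CPM in cultured MLN, 82.1 and 88.9 CPM in thymus, and 285 and 291 CPM in fresh MLN. It too had 3 separate groups, with log2 fold changes against fresh MLN of -2.61 ± 0.08 in cultured MLN and -1.75 ± 0.08 in thymus. Its value in cultured MLN against thymus was -0.86 ± 0.08. This call was lost when Irgm2 and Igtp were summed (-0.08, edgeR adjusted p = 0.42), a sum that takes in the higher value of Igtp.

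Igtp was at 129 and 146 CPM in cultured MLN, 101 and 118 CPM in thymus, and 349 and 336 CPM in fresh MLN. It is the only member called higher in cultured MLN than in thymus. Its log2 fold change there was 0.33 ± 0.08 (edgeR, adjusted p = 0.00322), and the groups did not overlap. The call was lost with library totals alone (0.07, adjusted p = 0.431) and without cultured MLN replicate 2 (0.25, adjusted p = 0.0553). Of the 50-base stretches of Igtp, 11.8% occur in Irgm2. With both genes summed the value was -0.08 (edgeR, adjusted p = 0.42). That sum follows from the lower value of Irgm2, so it cannot show whether the counting of shared reads affected the call. Against fresh MLN the fall of Igtp was the smallest of the 10 in culture, -1.32 ± 0.08, and -1.65 ± 0.09 in thymus.

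The effector IRG members are Iigp1, the gene of Irga6, and Tgtp1, a gene of Irgb6, both of which load onto Toxoplasma vacuoles in mouse cells. Iigp1 was at 1.21 and 1.87 CPM in cultured MLN, 31.4 and 37.8 CPM in thymus, and 449.8 and 454 CPM in fresh MLN. In counts these were 40 and 68 reads in cultured MLN, 1273 and 1422 in thymus, and 17502 and 17091 in fresh MLN, so the low values lie above the floor of 3 counts. The groups were widely separated, and Iigp1 had the largest change of the 10 members in both comparisons with fresh MLN: -8.18 ± 0.15 in cultured MLN, a 293-fold lower mean CPM, and -3.71 ± 0.10 in thymus, a 13.1-fold lower mean (edgeR, adjusted p = 5.21e-14 and 1.9e-11).

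Tgtp1 was at 1.21 and 1.74 CPM in cultured MLN, 50.6 and 56.2 CPM in thymus, and 182 and 185 CPM in fresh MLN. It stood apart in culture rather than in thymus: its log2 fold change against fresh MLN was -6.95 ± 0.12 in cultured MLN and -1.78 ± 0.08 in thymus, the second of these near the members' median. In cultured MLN against thymus it was -5.17 ± 0.13 (edgeR, adjusted p = 7.46e-13), and Iigp1 was at -4.47 ± 0.15. Its value is uncertain because 79.4% of its 50-base stretches also occur in Tgtp2, and how the authors' counting treated such reads is not given in the sources used here. Tgtp2 was at 26.2 and 29.2 CPM in cultured MLN, 76.3 and 90.7 CPM in thymus, and 254 and 252 CPM in fresh MLN, and its log2 fold change in cultured MLN against fresh MLN was -3.19. With Tgtp1 and Tgtp2 summed the fall stayed past the threshold but was smaller, -3.90 in cultured MLN against fresh MLN and -2.23 in cultured MLN against thymus.

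**Figure D3:**
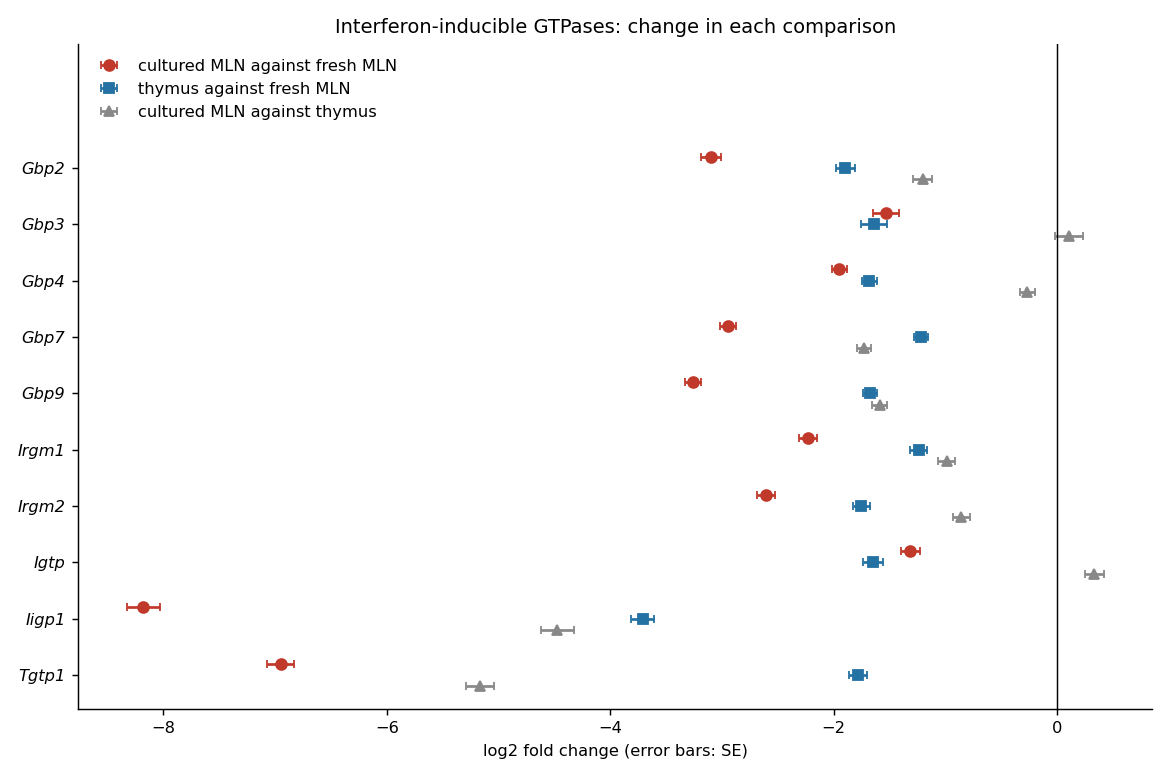
Log2 fold change of each member with its SE in cultured MLN against fresh MLN (red circles), thymus against fresh MLN (blue squares) and cultured MLN against thymus (grey triangles). Red and blue points all lie below 0, Iigp1 reaches -8.18 in cultured MLN against fresh MLN, and the grey points of Gbp3 and Igtp lie above 0 at 0.11 and 0.33; that of Igtp lies below 0 when it is summed with Irgm2, and that of Gbp3 with library totals alone.

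By role, the 3 regulatory IRG members had log2 fold changes in cultured MLN against fresh MLN between -2.61 and -1.32, and the 2 effector members -8.18 and -6.95, the second of which is -3.90 with Tgtp1 and Tgtp2 summed. The 5 GBP members lay between -3.26 and -1.53. These ranges are descriptions of few genes, and the effector genes outside the member list did not all lie with Iigp1: Gm12250 (Irgb10), chosen after its value was seen, was at 23.8 and 30.2 CPM in cultured MLN and 178 and 176 CPM in fresh MLN, a log2 fold change of -2.71.

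Levels of different genes can be compared per length of exon. By group mean Igtp was the highest member per kb in every group, at 68.1 CPM per kb in cultured MLN, 54.1 in thymus and 169 in fresh MLN. In thymus Gbp7, at 48.9 CPM per kb, was too close to order, since the 2 Igtp libraries there differed 1.16-fold. The exon lengths are those of GENCODE M21, while the reads were counted on mm9. In fresh MLN, Gbp2 (116 CPM per kb) and Gbp7 (114 CPM per kb) came next and were too close to order, and Gbp3 was last at 18.8 CPM per kb. Iigp1 was the sixth of the 10 in fresh MLN, at 77.6 CPM per kb, next to Irgm2 at 78.1, and last in cultured MLN, at 0.265 CPM per kb. In thymus Iigp1 (5.94 CPM per kb) and Gbp3 (6.04 CPM per kb) were lowest and too close to order. As a share of the members' summed CPM, Iigp1 made up 0.249% in cultured MLN and 12.4% in fresh MLN, and Igtp 22.3% in cultured MLN and 9.38% in fresh MLN.

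Of 16 other GBP and IRG genes listed, 13 were matched and 12 tested. In thymus 11 were lower and 1 higher than in fresh MLN, with a median log2 fold change of -2.19. In cultured MLN 12 of 12 were lower than in fresh MLN, with a median of -3.24. Against thymus, cultured MLN had 11 lower and 1 higher. The IRG genes F830016B08Rik and Gm4951, which are on chromosome 18 as is Iigp1, fell most: F830016B08Rik by 8.68 on the log2 scale in cultured MLN against fresh MLN, where it had 1 and 4 counts in cultured MLN against 1292 and 1080 in fresh MLN. Gm4951 had 2 and 8 counts in cultured MLN against 2375 and 2075 in fresh MLN, a log2 fold change of -8.62. In thymus against fresh MLN these 2 genes were at -5.30 and -4.51. In GENCODE M21 the model of Gm12185 overlaps that of Tgtp1 on chromosome 11. Gm12185 was at -5.02 in cultured MLN and -3.44 in thymus, both against fresh MLN. Irgq, an IRG relative that interferon is not known to induce, was the gene called higher in thymus than in fresh MLN, by 0.30, and was chosen here after its value was seen. The 4 Mx and giant interferon GTPases tested fell in all 3 comparisons; the antiviral GTPase gene Mx1 was at 0.724 and 1.27 CPM in cultured MLN, 28.6 and 39.8 CPM in thymus, and 310 and 335 CPM in fresh MLN.

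The ligands, receptors and signalling genes of interferon were measured beside these targets. Ifng, the gene of interferon-gamma, had 8 and 14 counts in cultured MLN, 2 and 0 in thymus, and 13 and 15 in fresh MLN. It was called lower in thymus than in fresh MLN (edgeR, adjusted p = 0.00287), and in cultured MLN against fresh MLN the groups overlapped and no call was made (adjusted p = 0.729). Of 7 type I and type III interferon genes matched, 6 had no count in any library, which allows up to 3 counts or 0.0739 to 0.0905 CPM per library, and the seventh, Ifnk, had at most 1 count in a library. Of the IL-27 subunits, Ebi3 was at 75.2 and 72.2 CPM in cultured MLN, 5.59 and 7.39 CPM in thymus, and 23.5 and 21 CPM in fresh MLN, and differed in all 3 comparisons. Il27 had 26 and 21 counts in cultured MLN, 6 and 0 in thymus, and 2 and 4 in fresh MLN, higher in cultured MLN than in either other group.

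Of the 5 receptor genes tested, 1 was higher and 1 lower in thymus than in fresh MLN. Ifngr1, which binds interferon-gamma, was at 206 and 197 CPM in cultured MLN, 529 and 531 CPM in thymus, and 312 and 319 CPM in fresh MLN, so it was higher in thymus than in fresh MLN by 0.75 on the log2 scale. Il10rb had a log2 fold change of -0.40 in thymus against fresh MLN, and Ifngr2, Ifnar1 and Ifnar2 were at 0.22, 0.09 and 0.07 without a call. In cultured MLN against fresh MLN 4 of 5 were lower, between -1.01 and -0.32, and Il10rb was at 0.17 without a call.

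Of 11 JAK-STAT genes and factors tested, 9 fell in thymus against fresh MLN with none higher, and 8 were lower and 1 higher in cultured MLN than in fresh MLN. Stat2 was at -2.30 and Nlrc5, a transactivator of class I genes, at -2.75 in cultured MLN against fresh MLN, and at -1.38 and -1.45 in thymus against fresh MLN. Irf9, a DNA-binding IRF factor, was at -2.29 in cultured MLN against fresh MLN. Of 8 feedback inhibitors, 4 were higher and 4 lower in cultured MLN than in fresh MLN, against 39.4% and 38.1% of all genes. In thymus 2 were higher and 4 lower than in fresh MLN, against 25.3% and 22.0% of all genes. Socs3, which blocks cytokine receptors through JAK, was at 714 and 705 CPM in cultured MLN, 16.4 and 20.6 CPM in thymus, and 15.6 and 15.3 CPM in fresh MLN. Usp18, which blocks the type I receptor, moved the other way, at 1.93 and 1.68 CPM in cultured MLN, 75.1 and 87.9 CPM in thymus, and 239 and 253 CPM in fresh MLN.

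In thymus all 24 antiviral interferon-stimulated genes tested fell relative to fresh MLN, with a median log2 fold change of -1.59, and all 24 were lower in cultured MLN than in fresh MLN, with a median of -5.65. In cultured MLN against thymus 23 of 24 were lower, with a median of -3.83. These medians are the same with the 1 gene without a count in cultured MLN, Ifit3b, set at the bound that 3 counts allow. Oas2, a sensor of double-stranded RNA, was at 0.151 and 0.276 CPM in cultured MLN, 96.6 and 101 CPM in thymus, and 375 and 402 CPM in fresh MLN. Both cultured libraries lay far below those of the other groups. The median GTPase fall in culture against fresh MLN, -2.78, was smaller than the antiviral median, while the medians in thymus, -1.68 and -1.59, were close; no test was made between these lists.

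Genes best known from interferon-gamma responses did not move as 1 group in culture. Of 19 tested, 2 were higher and 15 lower in thymus than in fresh MLN, with a median log2 fold change of -0.95 (-0.83 with the 2 genes without a thymus count at their bound). In cultured MLN against fresh MLN 6 were higher and 12 lower, with a median of -0.64. The chemokine gene Cxcl10 was at 0.0603 and 0.193 CPM in cultured MLN, 8.48 and 14.7 CPM in thymus, and 148 and 154 CPM in fresh MLN. The tryptophan-degrading enzyme gene Ido1 went the other way, at 13.3 and 17.2 CPM in cultured MLN against 0.103 and 0.0531 CPM in fresh MLN, with no count in thymus. Gch1, an enzyme of biopterin synthesis, was higher in cultured MLN than in fresh MLN by 4.01 on the log2 scale, and Upp1, a uridine phosphorylase, by 6.88.

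**Figure D4:**
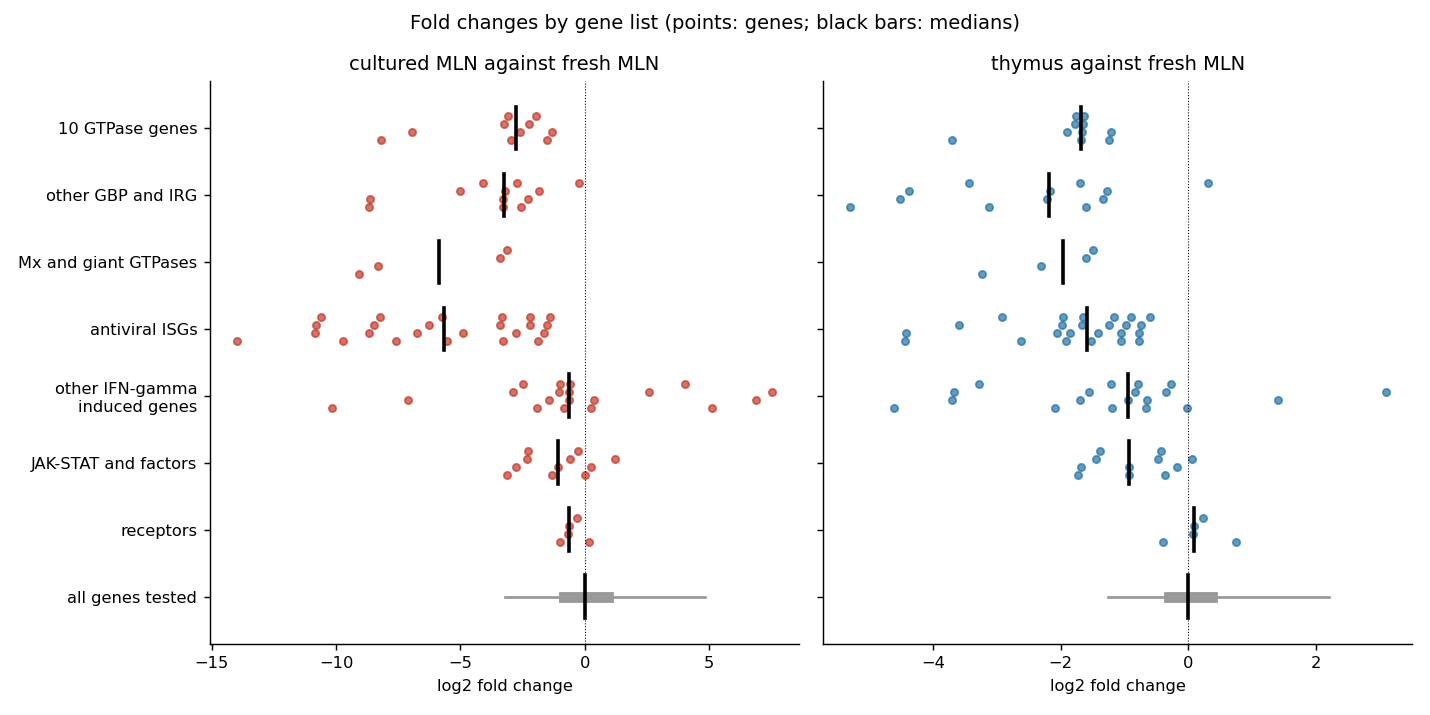
Fitted log2 fold changes in cultured MLN against fresh MLN (left) and thymus against fresh MLN (right) for the 10 GTPase members and 6 related lists; points are genes, black bars medians, and the lowest line shows all genes tested (thick, 25th to 75th percentile; thin, 5th to 95th). The members' medians are -2.78 and -1.68, the antiviral genes reach further down in culture with a median of -5.65, and the interferon-gamma list spreads to both sides of 0.

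A list of 15 genes covered LC3 conjugation, the autophagy machinery that places GBP and IRG proteins on vacuoles, with its ubiquitin ligases and adaptors. Of these, 1 rose and 2 fell in thymus, and 6 were higher and 6 lower in cultured MLN, all against fresh MLN. Over all genes 25.3% were higher and 22.0% lower in thymus, and 39.4% higher and 38.1% lower in cultured MLN. The list thus did not stand out from all genes in cultured MLN. Gabarapl1, an LC3 homologue, was at 33.6 and 28.0 CPM in cultured MLN, 8.48 and 9.81 CPM in thymus, and 5.17 and 5.63 CPM in fresh MLN. Trim21, an antibody receptor inside cells, was at -2.52 in cultured MLN and -0.91 in thymus, both against fresh MLN on the log2 scale. Of 9 inflammasome genes tested, 7 were lower and 2 higher in cultured MLN than in fresh MLN, and 5 were lower and 2 higher in thymus than in fresh MLN. Casp1, the inflammatory caspase, was at 23.5 and 26.6 CPM in cultured MLN, 40.4 and 40.4 CPM in thymus, and 94.3 and 90.2 CPM in fresh MLN. The sensor gene Nlrp3 was at 55.8 and 56.6 CPM in cultured MLN, 0.197 and 0.372 CPM in thymus, and 0.0257 and 0.159 CPM in fresh MLN.

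Of the 6 genes outside the list whose pattern lay closest to the members' mean profile, 5 are named here: Zbp1, Tgtp2, Icosl, Trim30d and Gramd3. Likeness was the root mean square distance on the log2 scale over the 6 libraries, each gene centred on its own mean, among 10061 genes with at least 10 CPM in a group. Zbp1, a sensor of nucleic acids in the Z form, was nearest at 0.0901 (Pearson r 0.998), with 35.3 and 44.1 CPM in cultured MLN, 123 and 142 CPM in thymus, and 411 and 424 CPM in fresh MLN. Tgtp2 was at 0.112, and Icosl, the ligand of the costimulator ICOS, at 0.122. Among the members, Gbp9 at 0.120 and Gbp2 at 0.177 lay closest to the mean profile, which they help to form, and Iigp1 at 1.97 farthest. With r alone as the measure, 1 of these 6 genes was still among the nearest 6, so the list depends on the measure, and over 6 libraries in 3 groups many genes have a high r.

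RNA of other cell types was also measured, since macrophages, dendritic cells and lymphocytes express GBP and IRG genes. Summed over 15 macrophage and monocyte markers, the level was 26.6 and 28.9 CPM in cultured MLN, 11.9 and 16.9 CPM in thymus, and 97.6 and 105 CPM in fresh MLN, with 6 genes in cultured MLN, 2 in thymus and 1 in fresh MLN at 3 counts or fewer. Of the 12 tested, 8 fell in thymus against fresh MLN, and 8 were lower and 3 higher in cultured MLN than in fresh MLN. Cybb, a subunit of the phagocyte oxidase, made up most of the fresh MLN sum at 72.3 and 66.8 CPM, while Csf1r, which defines macrophages, was at 0.332 and 0.0276 CPM in cultured MLN, 0.616 and 0.691 CPM in thymus, and 0.925 and 2.07 CPM in fresh MLN, and Marco was at 0 in both cultured MLN and thymus. Adgre1, the gene of the macrophage marker F4/80, was higher in cultured MLN, at 3.59 and 3.56 CPM, against 0.123 and 0.346 CPM in thymus and 0.231 and 0.292 CPM in fresh MLN. Cd68 was also higher in cultured MLN than in thymus, by 2.06 on the log2 scale. The members' sum in fresh MLN was above 3600 CPM. Sums of different genes do not give shares of cells, and the part of macrophages in the members' sum was not tested. Dendritic cell markers, 10 in number, summed to 49.8 to 52.7 CPM in cultured MLN, 20.2 to 22.8 in thymus and 40.4 to 43.9 in fresh MLN, with 5 lower and 1 higher of 7 tested in cultured MLN and 4 lower and 1 higher in thymus, both against fresh MLN. The median log2 fold change of the 7 was -3.42 in cultured MLN and -1.08 in thymus, both against fresh MLN. Xcr1, a chemokine receptor gene of dendritic cells, ran against its list as the only gene called higher in each, at 2.598 and 0.555.

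Of lymphocyte markers, 10 B cell genes summed to 118 to 131 CPM in cultured MLN, 74.6 to 81.9 in thymus and 156 to 199.9 in fresh MLN, mostly Ighm, and the defining gene Ms4a1 had no count in cultured MLN. Of the 5 B cell genes tested, 3 were higher and 1 lower in cultured MLN against fresh MLN, and 1 was higher and 2 lower in thymus against fresh MLN. The 12 T cell genes summed to 68.5 to 76.3 CPM in cultured MLN, 778 to 819.6 in thymus and 590 to 603 in fresh MLN, mostly the T cell receptor constant genes Trbc1 and Trbc2. Of the 11 tested, 6 were higher and 1 lower in thymus, and 1 higher and 7 lower in cultured MLN, both against fresh MLN. Cd4 and Cd8a were below 7 CPM in every library, and Cd4 was higher in thymus than in fresh MLN by 2.58 on the log2 scale. The 12 NK cell and ILC1 genes summed to 216 to 334 CPM in cultured MLN, mostly Gzma. Their sums were 202 to 207 CPM in thymus and 174 to 188 CPM in fresh MLN. Against fresh MLN, 8 of 12 were lower and 2 higher in thymus, and 9 of 12 lower and 3 higher in cultured MLN. Ncr1, the first marker of that list, was at 0 and 0.0827 CPM in cultured MLN, 0.813 and 0.957 CPM in thymus, and 6.63 and 7.25 CPM in fresh MLN. The 9 stromal and epithelial genes summed to 168 to 169.9 CPM in cultured MLN, 190 to 196 in thymus and 148 to 156 in fresh MLN, mostly Pecam1. The macrophage and B cell sums were thus highest in fresh MLN, as the GTPases were. These marker sums were lowest in thymus, and the GTPase sum was lowest in cultured MLN. Most NK cell and ILC1 genes were also lower in the other groups, with medians of -1.71 in thymus and -6.17 in cultured MLN against fresh MLN. The sum of that list was lowest in fresh MLN. A sum follows its most abundant genes, such as Gzma, which was higher in cultured MLN than in fresh MLN by 2.03. The part of these cells in the GTPase values was not tested.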

How the data were processed

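Per the labels' protocols, libraries were made with a stranded mRNA kit. The authors deposited 1 raw count per Ensembl gene and library, without normalization. Per the submitters' processing notes, reads were counted with HTSeq 0.5.3p9 on mm9 and NCBIM37. No aligner, annotation release or strand option is stated in the sources used here. Symbols and exon lengths came from GENCODE M21 (GRCm38) by Ensembl identifier; 32919 of 37991 identifiers had a symbol, and no coordinate was taken from that match.

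The counts of all 6 libraries were fitted together in R 4.3.3 with edgeR 4.0.16, with filterByExpr, TMM factors, 1 mean per group and no block. The quasi-likelihood F test was two-sided, with Benjamini-Hochberg adjustment over 16231 genes in each of 3 comparisons; a gene was called at adjusted p under 0.05. SE is the absolute log2 fold change over the square root of F. The fit was tested on simulated counts. With 2 libraries a group, an exact permutation test of a single gene cannot reach 0.05 and was not run. Libraries of a group differed by more than sampling noise (mean chi-square per gene 9.16 to 14.9), so none was taken for a copy. Intervals and floors (3 counts) cover counting error only.

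The 19 gene lists, the members among them, were chosen with earlier results of these data known. Named were all members, up to 4 called genes per list, by size of change, whose higher group reached 5 CPM, every ligand and receptor gene tested, 2 or 3 marker genes of each other cell type, and the 6 genes of nearest pattern; other names were chosen after their values were seen. Single genes that these rules name but that are not reported here remain in the counts and medians of their lists. Alternatives were RLE, upper-quartile and no scaling factors, no filter, a filter of 5 CPM in 2 libraries, and DESeq2 1.42.0. Further ones were a fit of 2 groups, a replicate block, each library left out, and sums of genes that share sequence. Summing Gbp4, Gbp8 and Gbp9 was added after the data were seen.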

Additional observations from a re-analysis of the deposited data

How the results depend on the processing

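All 10 members stayed lower in thymus and in cultured MLN than in fresh MLN, past the threshold, under all 145 member values computed for each comparison under the alternatives, left-out libraries included. In cultured MLN against thymus 138 of 145 member values kept their direction and their side of the threshold. The number of members called higher there was 0 with library totals alone and ranged from 0 to 2 with a library left out (0 without cultured MLN replicate 2, 2 without cultured MLN replicate 1). Gbp3 turned to -0.151 with library totals alone and ranged from -0.136 (without cultured MLN replicate 2) to 0.315 (without cultured MLN replicate 1), and Igtp turned to -0.0753 when summed with Irgm2, which follows from the lower value of Irgm2. Of 6 genes of nearest pattern, 1 was kept with Pearson r alone. Other reversals were near 0 or at few counts: in thymus against fresh MLN, Il27 between -4.59 and 0.893 with a library left out (0.539 without fresh MLN replicate 2), and Adgre1 between -1.06 and 0.405; in cultured MLN against fresh MLN, Ifng between -0.584 and 0.0810 with a library left out and Il10rb at -0.0531 with library totals alone; in cultured MLN against thymus, Ighm at -0.0451 and Pecam1 at -0.0779 with library totals alone. The cause was not tested.

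Library totals alone moved the median of all genes by -0.22 in cultured MLN against fresh MLN and by -0.26 against thymus, and gave 4254 genes higher and 7880 lower in cultured MLN than in thymus, in place of 5654 and 6139. The libraries share replicate numbers only. Their deviations correlated at 0.12, 0.01 and 0.26 between groups, and a replicate block called the same numbers of members (10 and 10 lower against fresh MLN, 8 lower and 1 higher against thymus). Depth limits Ifng, Il27 and the low IRG genes, and with 2 libraries a group the spread is poorly known.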
